A study of Homo sapiens with 8 samples.

Results

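The 10 genes described here lie in 2 chromosome bands that are often amplified in breast cancer, 5 on 17q23 (RPS6KB1, APPBP2, PPM1D, BCAS3 and TBX2) and 5 on 20q13 (PREX1, BCAS4, ZNF217, BCAS1 and PFDN4). They were picked by symbol from the 26475 genes of the deposited count table, and all 10 were among the 14008 genes tested. The 5 genes of chromosome 17 are annotated, in order, at 59893121 to 59950574 (RPS6KB1), 60443158 to 60526242 (APPBP2), 60600193 to 60666280 (PPM1D), 60677851 to 61392831 (BCAS3) and 61399843 to 61409466 (TBX2) in RefSeq on GRCh38.p14. Those of chromosome 20 lie at 48624252 to 48888185 (PREX1), 50794894 to 50882676 (BCAS4), 53567071 to 53597702 (ZNF217), 53943541 to 54070594 (BCAS1) and 54208087 to 54219961 (PFDN4). The 8 RNA libraries came from BT474, a human breast cancer line in long use. The labels give 4 libraries as NPY1R high and 4 as NPY1R low, and name no drug, time or other difference between them. NPY1R is a Gi-coupled receptor for neuropeptide Y, and the split stands in the labels under genotype, without the method that separated the cells and without saying whether a clone was used. Separate cultures are not named either, so p-values measure the spread between these samples, which may be technical.

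Amplification gives a cell extra copies of a stretch of chromosome, and the genes in it are often, but not always, expressed more. BT474 is known for gains at 17q23 and 20q13 beside its amplified ERBB2 on 17q12. Fusion transcripts made at such breakpoints, one of them with RPS6KB1, have been described in this line, and gene counts do not separate them from the normal transcript. DNA copy number was not measured in these samples. RPS6KB1 encodes S6 kinase 1, which acts below mTORC1. PPM1D encodes the phosphatase WIP1, which switches off p53 and its upstream kinases, and TBX2 is a T-box repressor. PREX1 encodes an exchange factor that activates the GTPase Rac when bound by PIP3 and by the beta-gamma subunits that G protein-coupled receptors release. ZNF217 is a zinc finger factor of CoREST and CtBP repressor complexes, and PFDN4 is a subunit of prefoldin, which hands unfolded actin and tubulin to the CCT chaperonin.

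Total counts ranged from 18025648 to 30609791 per library. NPY1R itself had 699.2 to 1049 CPM (counts scaled by library size) in the NPY1R high libraries and 90.8 to 103.7 CPM in the NPY1R low libraries, in the direction of the labels. All 11 luminal breast markers were present, among them KRT8 at 1138 CPM or more and CDH1 at 783.5 CPM or more in every library. Of the 11, edgeR's quasi-likelihood test called 3 higher and 2 lower in NPY1R high at an adjusted p under 0.05, against 13.6% of all genes. PGR had 1920 to 2505 CPM in NPY1R high and 568.7 to 758.6 CPM in NPY1R low, and ESR1 99.98 to 108.5 and 67.3 to 74.1 CPM. In the other direction, EPCAM had 215.9 to 235.3 and 256.8 to 289.0 CPM, and FOXA1 266.9 to 276.4 and 300.6 to 324.4 CPM. KRT14, COL1A2, DCN and CD3E had 0 counts, and PTPRC was at most 0.0551 CPM. The summed level of 8 fibroblast markers was 120.9 to 141.2 CPM in NPY1R high and 62.4 to 76.8 CPM in NPY1R low, mostly VIM with some COL1A1, and the other 6 stayed under 1 CPM in every library. Sums for 7 basal, 4 endothelial and 6 immune markers reached at most 13.2, 18.2 and 2.77 CPM. The part of these markers in the results below was not tested.

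Promoter windows, the 250 bases before the annotated start, were taken from RefSeq (GRCh38.p14) for the 8 genes with an entry, and TBX2 and BCAS1 were not matched. The window of PREX1 is shown because PREX1 was the gene that was higher in NPY1R high, and the window of ZNF217, a gene of 20q13 that did not pass the test, for comparison. Capitals mark GGGCGG, the GC box, on either strand. The PREX1 window (chr20:48828000-48828249, minus strand, 84.8% GC) holds 6 matches, and that of ZNF217 (chr20:53593840-53594089, minus strand, 72.4% GC) holds 3. Both windows fall inside the annotated span of their gene.
PREX1: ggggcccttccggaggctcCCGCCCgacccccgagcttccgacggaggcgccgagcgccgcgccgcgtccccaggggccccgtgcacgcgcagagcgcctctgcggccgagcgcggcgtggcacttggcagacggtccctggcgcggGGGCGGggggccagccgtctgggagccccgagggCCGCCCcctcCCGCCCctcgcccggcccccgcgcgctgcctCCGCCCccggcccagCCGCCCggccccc
ZNF217: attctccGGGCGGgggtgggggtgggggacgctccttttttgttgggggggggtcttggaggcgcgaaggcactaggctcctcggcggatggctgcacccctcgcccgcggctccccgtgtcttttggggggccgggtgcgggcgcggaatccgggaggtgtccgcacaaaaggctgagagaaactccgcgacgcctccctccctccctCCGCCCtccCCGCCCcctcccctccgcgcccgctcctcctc
GGGCGG was found in 5 of the 8 windows and in 42.6% of all 35116 RefSeq windows. The full palindromic estrogen response element was found in 0 of the 8 and in 0.0399% of all windows, its single arm GGTCA in 3 of 8 against 32.6%, CCAAT in 4 of 8 against 32.0%, and TATAAA and CACGTG in 0 of 8 against 10.7% and 6.34%. The full element contains GGTCA, so those searches overlap. The median GC content of all windows was 58.0%, and the 8 ranged from 54.0% for RPS6KB1 to 84.8% for PREX1.

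RPS6KB1 is read away from its neighbour TUBD1, a tubulin gene, and only 177 bases (chr17:59892944-59893120, GRCh38.p14, plus strand, 57.6% GC) separate the 2 annotated starts. They are shown because both genes had a lower level in NPY1R high, TUBD1 past the test and RPS6KB1 not. Capitals mark GCGCATG on either strand, a motif chosen after the sequence was read, with 2 matches between the starts and a match in 3.77% of all RefSeq windows of 250 bases.
RPS6KB1 to TUBD1: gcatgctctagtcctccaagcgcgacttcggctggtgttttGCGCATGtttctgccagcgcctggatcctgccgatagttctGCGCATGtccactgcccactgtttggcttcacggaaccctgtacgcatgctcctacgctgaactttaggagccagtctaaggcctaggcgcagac

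Of the 10 genes, 1 was higher and 1 was lower in NPY1R high by edgeR's quasi-likelihood test at an adjusted p under 0.05. PREX1 rose and BCAS1 fell, both on 20q13 and in opposite directions. Over all genes the same test called 13.6%, with 5.78% higher and 7.81% lower, so that 42.5% of calls were higher. This share turned to 56.3% with upper-quartile factors. It was 49.5% to 53.1% when TMM, the scaling used here, took another library as its reference. The same 2 genes were the ones whose groups did not overlap, against 20.2% of all genes tested, 8.77% higher and 11.4% lower. At an unadjusted p under 0.05 there were 5 of 10 genes, against 26.2% of all, and at an adjusted p under 0.01 there was 1 of 10, BCAS1, against 7.37%. DESeq2 called 3 of 10 where it called 15.1% of all genes, and limma-voom 2 of 10 where it called 13.4%.

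BCAS1, a gene first named for its amplification in breast cancer and now used as a marker of newly formed oligodendrocytes, had the largest change of the 10. It had 160.7, 163.8, 109.0 and 92.7 CPM in NPY1R high replicates 1 to 4. In NPY1R low replicates 1 to 4 it had 290.2, 298.5, 227.8 and 223.6 CPM. Every NPY1R high library was below every NPY1R low library, and in both groups replicates 1 and 2 lay above replicates 3 and 4. BCAS1 fell from 260.0 ± 39.9 to 131.5 ± 36.1 CPM (SD, n = 4 each), 1.97-fold lower. The log2 change was -0.98 (SE 0.19, 95% interval -1.40 to -0.57), and edgeR's quasi-likelihood test gave an adjusted p of 0.0061. It was called in all 28 other fits, with log2 changes from -1.10 to -0.81. In bulk RNA, fewer cells that express a gene and less of its RNA per cell cannot be told apart.

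PREX1 went the other way. It had 1101, 996.6, 805.7 and 1096 CPM in NPY1R high replicates 1 to 4, and 760.1, 787.5, 697.6 and 539.0 CPM in NPY1R low replicates 1 to 4. The lowest NPY1R high library, replicate 3, lay just above the highest NPY1R low library, replicate 2. PREX1 rose from 696.0 ± 111.3 to 999.9 ± 138.1 CPM (SD, n = 4 each), 1.44-fold higher. The log2 change was 0.52 (SE 0.13, 95% interval 0.23 to 0.82), and edgeR's quasi-likelihood test gave an adjusted p of 0.0255. The call held in 24 of 28 other fits. It was lost without NPY1R high replicate 1, 2 or 4 and without NPY1R low replicate 3, with adjusted p of 0.0719, 0.0607, 0.0607 and 0.0709 in the same test, while the log2 change stayed between 0.47 and 0.52.

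**Figure D1:**
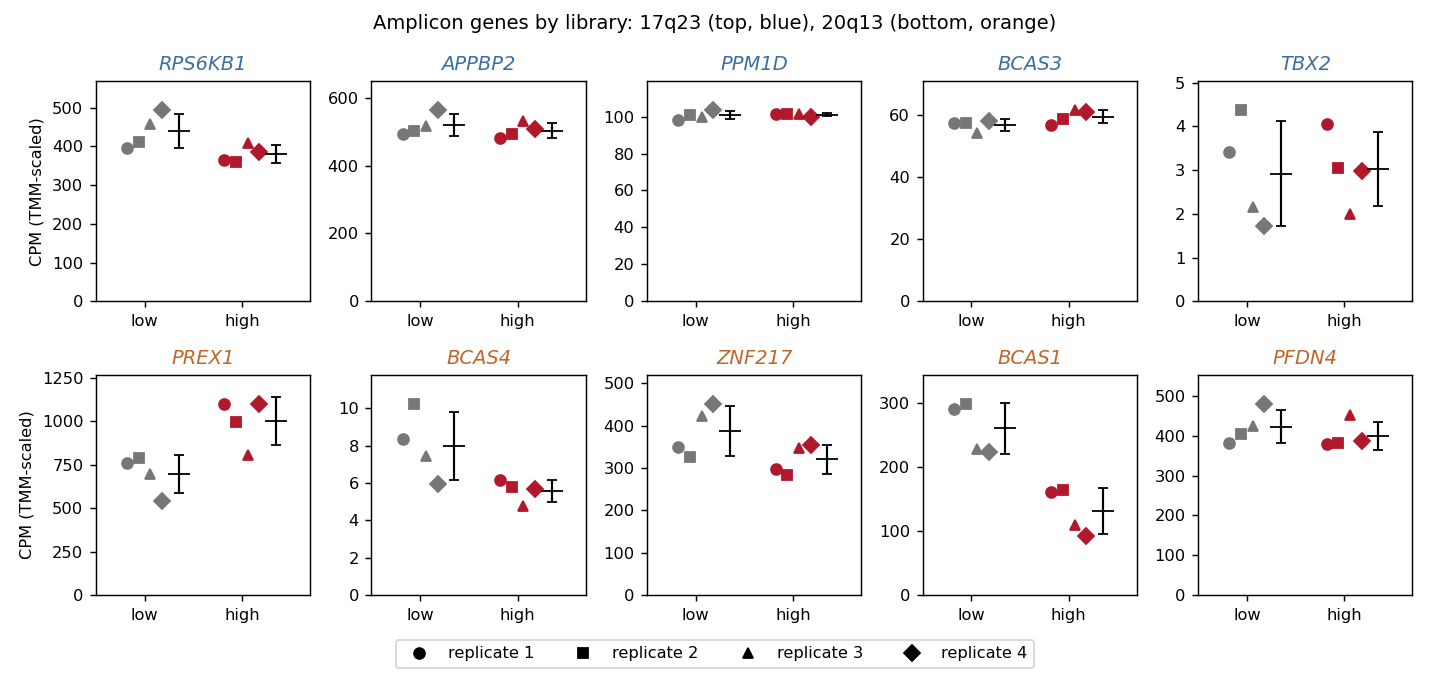
TMM-scaled CPM (vertical axes from 0, 1 scale per gene) of the 10 genes in NPY1R low (grey) and NPY1R high (red) libraries, with symbols for replicates 1 to 4 and black bars for the mean and SD (n = 4). BCAS1 is lower and PREX1 higher in NPY1R high with no overlap, and the groups of the other 8 genes overlap.

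The other 3 genes on 20q13 did not pass the test, and all 3 had negative log2 changes. BCAS4, a gene found fused to BCAS3 in the breast cancer line MCF-7, had 6.15, 5.80, 4.78 and 5.67 CPM in NPY1R high replicates 1 to 4 and 8.36, 10.3, 7.46 and 5.93 CPM in NPY1R low. NPY1R low replicate 4 alone fell within the NPY1R high range. The log2 change was -0.52 (SE 0.17, 95% interval -0.90 to -0.14), and edgeR's quasi-likelihood test gave an adjusted p of 0.0776. It was called without NPY1R low replicate 4 (log2 change -0.60, adjusted p 0.0158, same test), and in DESeq2 (adjusted p 0.0495).

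ZNF217 had 297.7, 283.2, 346.8 and 353.1 CPM in NPY1R high replicates 1 to 4 and 349.7, 324.8, 422.2 and 451.9 CPM in NPY1R low. Replicates 3 and 4 lay above replicates 1 and 2 in both groups, the reverse of BCAS1, its neighbour 346 kb away with no tested gene between them. Its log2 change was -0.27 (SE 0.11, 95% interval -0.53 to -0.02), and edgeR's quasi-likelihood test gave an adjusted p of 0.16. When the fit set replicates 1 and 2 apart from 3 and 4, a division noticed in earlier results of these data, ZNF217 was called lower at the same size (log2 change -0.27, adjusted p 0.00301, same test). That fit called 20.6% of all genes, and because the division came from these data, its call is not independent support. Of the 28 other fits, 4 called ZNF217. Without NPY1R low replicate 4 its log2 change was -0.16 (adjusted p 0.366, same test).

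PFDN4 had 379.8 to 452.3 CPM in NPY1R high and 382.8 to 481.2 CPM in NPY1R low, so the groups overlapped almost fully. Its log2 change was -0.08 (SE 0.08), with a 95% interval of -0.27 to 0.11.

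On 17q23, 0 of 5 genes passed edgeR's quasi-likelihood test (13.6% of all genes) and 1 of 5 had an unadjusted p under 0.05 (26.2% of all). DESeq2 and limma-voom called 0 of 5, where they called 15.1% and 13.4% of all. With 5 genes, these counts are near the shares over all genes. RPS6KB1 had 364.0, 359.1, 409.6 and 385.1 CPM in NPY1R high replicates 1 to 4 and 396.5, 411.4, 457.5 and 494.4 CPM in NPY1R low. Only NPY1R high replicate 3 reached into the NPY1R low range. The log2 change was -0.21 (SE 0.08, 95% interval -0.39 to -0.04), and edgeR's quasi-likelihood test gave an adjusted p of 0.108. RPS6KB1 was called lower in the fit that set replicates 1 and 2 apart from 3 and 4 (adjusted p 0.0107, same test). It was also called in the fit that took out each library's GC trend (adjusted p 0.0156, same test). Those fits called 20.6% and 19.9% of all genes. Of the 28 other fits, 4 called RPS6KB1. Without NPY1R low replicate 4 its log2 change was -0.12 (adjusted p 0.325, same test).

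PPM1D was the most even of the 10. It had 101.6, 101.6, 101.5 and 99.6 CPM in NPY1R high replicates 1 to 4 and 98.3, 100.8, 99.9 and 103.7 CPM in NPY1R low. Its log2 change was 0.01 (SE 0.04), with a 95% interval of -0.09 to 0.10. BCAS3, which encodes a beta-propeller protein of the cytoskeleton and of autophagy, had 56.8 to 61.6 CPM in NPY1R high and 54.0 to 58.1 CPM in NPY1R low. Its log2 change was 0.07 (SE 0.05, 95% interval -0.06 to 0.19).

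APPBP2, a microtubule-linked protein and substrate receptor of the CUL2 ubiquitin ligase, had 480.0 to 532.1 CPM in NPY1R high and 493.5 to 564.4 CPM in NPY1R low. Its log2 change was -0.05 (SE 0.06, 95% interval -0.18 to 0.09). TBX2 had the fewest counts, 54 to 118 in NPY1R high and 44 to 125 in NPY1R low. It had 1.99 to 4.05 CPM and 1.73 to 4.38 CPM, a log2 change of 0.04 (SE 0.31). The 95% interval was -0.65 to 0.73. With each library's GC trend taken out, the SE of TBX2 was 0.17 and its log2 change 0.11.

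**Figure D2:**
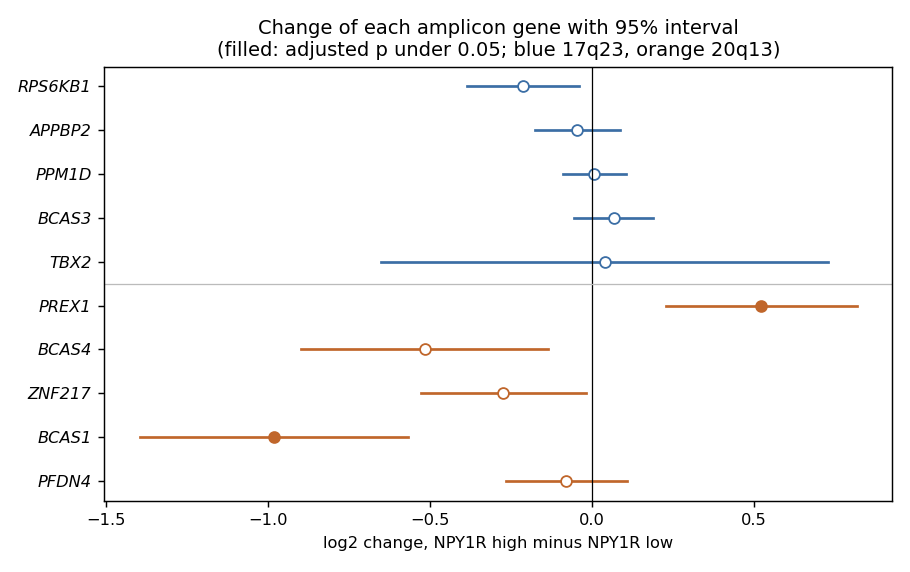
Log2 change, NPY1R high minus NPY1R low, of each gene (horizontal axis) with its 95% interval from edgeR's quasi-likelihood fit, 17q23 in blue and 20q13 in orange, filled where the adjusted p is under 0.05. PPM1D, BCAS3 and APPBP2 have narrow intervals around 0, and TBX2 has a wide one.

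Levels can be set beside each other only per length of transcript. Per kilobase of the longest coding transcript in GENCODE release 29, PFDN4 had 281.6 CPM over both groups, PREX1 127.8, APPBP2 78.9, RPS6KB1 74.8 and ZNF217 61.0. These 5 stood above the 92nd percentile of the 13189 tested genes with a length, PFDN4 at 98.9%. BCAS1 had 32.0, PPM1D 21.1 and BCAS3 15.8 CPM per kilobase, all above the median of 6.88 for all tested genes. BCAS4 at 1.02 and TBX2 at 0.889 CPM per kilobase stood at the 19.1 and 17.5 percentiles. Genes of the same band therefore differed widely in level, TBX2 and BCAS3 being 7 kb apart.

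Within each band, some genes shared the sign of their deviations from library to library and others opposed each other. Of the 10 pairs of genes on 17q23, RPS6KB1 and APPBP2 had the same sign in 7 of 8 libraries, also with the GC trend removed, and RPS6KB1 and TBX2 in 1. Of the 10 pairs on 20q13, BCAS1 and BCAS4, BCAS4 and PREX1, and ZNF217 and PFDN4 had the same sign in 7 of 8, while BCAS1 and ZNF217, and BCAS4 and PFDN4, had it in 0. With the GC trend removed, these counts were 7, 5 and 6, and 0 and 1. On 17q23, RPS6KB1 and TBX2 then went from 1 to 2, and PPM1D and TBX2 from 4 to 8. Pairs of genes outside these bands were not counted, so sharing particular to a band was not tested. On the log2 scale, BCAS1 deviated from its own group mean by 0.33, 0.36, -0.23 and -0.46 in NPY1R high replicates 1 to 4 and by 0.17, 0.21, -0.18 and -0.21 in NPY1R low. ZNF217 deviated by -0.10, -0.17, 0.12 and 0.15, and by -0.13, -0.24, 0.14 and 0.24. The deviations of PPM1D stayed between -0.03 and 0.04 in all 8 libraries. The mean over the 5 genes of 17q23 deviated by -0.07 to 0.11, and that over the 5 genes of 20q13 by -0.11 to 0.10.

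Libraries also differed in how expression followed transcript GC content. Across all tested genes, Spearman's rho of deviation with transcript GC was 0.563 in NPY1R low replicate 1 and -0.646 in NPY1R low replicate 4, and 0.491 and -0.507 in NPY1R high replicates 1 and 3 (genes are not independent replicates). PREX1 (58.5% GC) and TBX2 (66.6% GC) lay low in NPY1R high replicate 3 and NPY1R low replicate 4, while PFDN4 (35.3% GC), RPS6KB1 (38.2% GC) and APPBP2 (38.6% GC) lay high there. With each library's GC trend removed, the SD of PREX1 over the 4 NPY1R low libraries went from 0.25 to 0.02 on the log2 scale, and that of TBX2 from 0.59 to 0.25. Over the 4 NPY1R high libraries, the SD of PREX1 went from 0.21 to 0.10 and that of TBX2 from 0.41 to 0.17. The SD of BCAS3 grew, from 0.05 to 0.07 in NPY1R high and from 0.05 to 0.06 in NPY1R low. The log2 change of PREX1 was then 0.58 (SE 0.06), and edgeR's quasi-likelihood test gave an adjusted p of 3.05e-05. For BCAS1 and ZNF217 the pattern stayed. BCAS1 deviated by 0.34, 0.36, -0.25 and -0.45 in NPY1R high and its SD in NPY1R low was 0.22 before and 0.24 after, and that of ZNF217 was 0.22 before and 0.20 after.

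**Figure D3:**
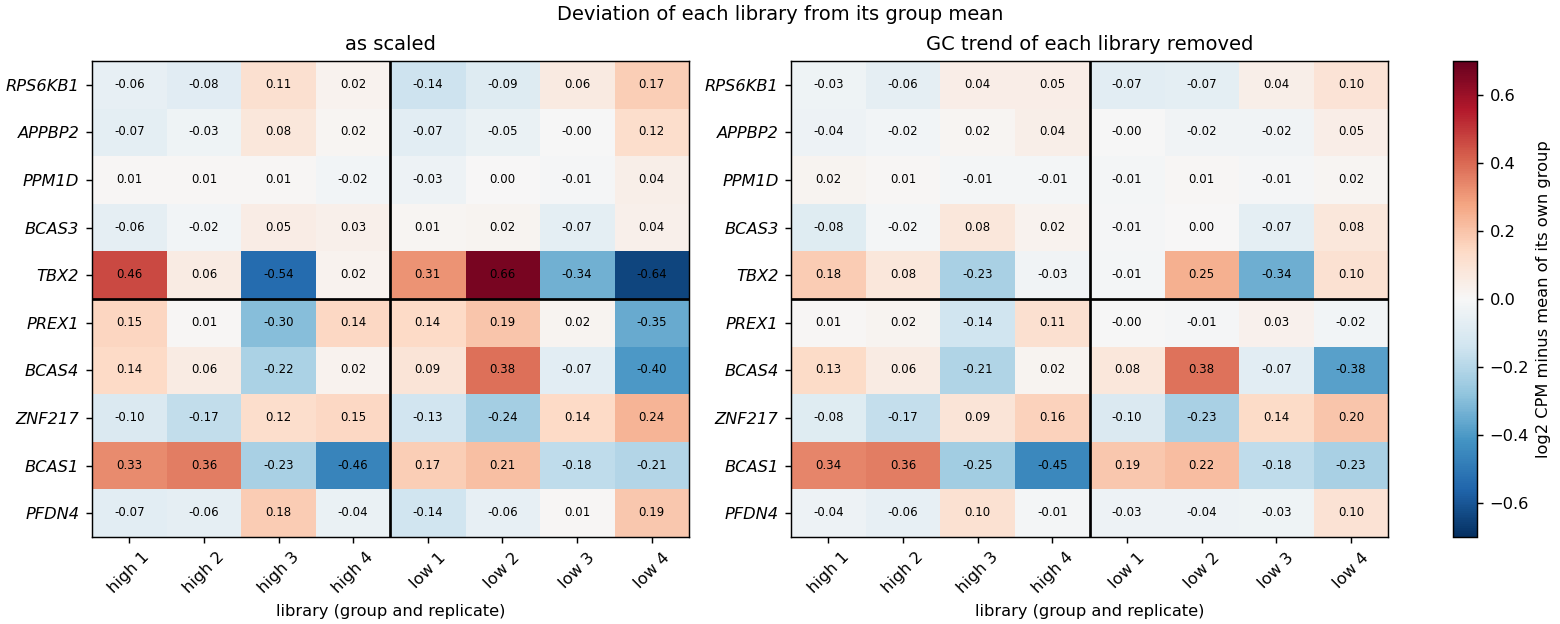
Deviation of each library's log2 CPM from its own group mean (colour and printed value) for the 10 genes (rows, 17q23 above the line) in 8 libraries (columns), as scaled on the left and after removal of each library's GC trend on the right. PREX1 and PFDN4 become more even on the right, while BCAS1 and ZNF217 keep opposite signs in replicates 1 and 2 against 3 and 4.

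Between replicates 1 and 2 alone, the groups differed by a log2 of -0.86 for BCAS1 and 0.44 for PREX1, and between replicates 3 and 4 alone by -1.17 and 0.62. With the GC trend removed and the term for this division, 5 of the 10 genes were called, namely BCAS1, PREX1, RPS6KB1, ZNF217 and BCAS4, where the same fit called 28% of all genes. With the GC trend removed alone, 4 of 10 were called against 19.9% of all, and with it and the replicate number as a block, 5 of 10 against 22.6%. With the block alone, 13.1% of all genes were called.

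The genes most like the 2 called ones, over the 8 libraries, were found by the root mean square difference of log2 CPM centred on each gene's mean, among 10441 genes. For BCAS1 they were FAM64A, a mitotic gene also named PIMREG (0.107), and SLC16A6, a monocarboxylate transporter (0.137), where the median gene differed by 0.581. For PREX1 they were ADCY9, an adenylate cyclase (0.0521), and CPAMD8 (0.0688), with a median of 0.367. None of the 4 lies on chromosome 20.

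Genes that lie between the outermost of the 10 were described by position alone. On 17q23, 10 tested genes lie from RPS6KB1 to TBX2 (chromosome 17, 59893121 to 61409466, RefSeq on GRCh38.p14). Of these, 0 passed edgeR's quasi-likelihood test (13.6% of all genes), 2 had an unadjusted p under 0.05 (26.2% of all), and 0 passed in DESeq2 or limma-voom (15.1% and 13.4% of all). Their median log2 change was 0.02, against -0.03 for all tested genes.

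On 20q13, 36 tested genes lie from PREX1 to PFDN4 (chromosome 20, 48624252 to 54219961), of which 2 were higher and 3 lower, 13.9% against 13.6% of all. FAM65C, also named RIPOR3, fell from 14.2 ± 2.03 to 3.88 ± 0.718 CPM (SD, n = 4 each). Its log2 change was -1.88 (SE 0.16), and edgeR's quasi-likelihood test gave an adjusted p of 5.76e-05. Besides PREX1, BCAS1 and FAM65C, the called genes were CSE1L, a nuclear export factor, at -0.20 (SE 0.05), and B4GALT5, a lactosylceramide synthase, at 0.17 (SE 0.05). The call of CSE1L was lost with RLE factors, library totals or upper-quartile factors and in all 8 fits that each left out a library (adjusted p up to 0.195), and that of B4GALT5 in 6 of them, those without NPY1R high replicate 3 and NPY1R low replicate 4 being the exceptions (up to 0.132), both in the same test. The count of 5 dropped to 2 without NPY1R high replicate 1, 2 or 4 or NPY1R low replicate 3, and to 3 without NPY1R low replicate 1 or 2. It was 4 without NPY1R high replicate 3 and 6 without NPY1R low replicate 4.

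The 31 genes on this stretch that are not among the 10 had a median log2 change of -0.12, and 27 of them (87.1%) were negative, against 55.9% of all tested genes. Over the 28 fits that tested all 31, the number negative ranged from 22 to 27 (71.0% to 87.1%), against 44.8% to 57.3% of all genes. The filter at 1 CPM left 26 of them, 20 of which were negative. Over all 29 fits, their median lay 0.05 to 0.13 below that of all tested genes. Their median level per library, centred on each gene's mean, was -0.08 to -0.02 in the 4 NPY1R high libraries and 0.06 to 0.07 in the 4 NPY1R low libraries. The median of all tested genes was -0.02 to 0.01 and 0.00 to 0.03 in the same libraries.

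**Figure D4:**
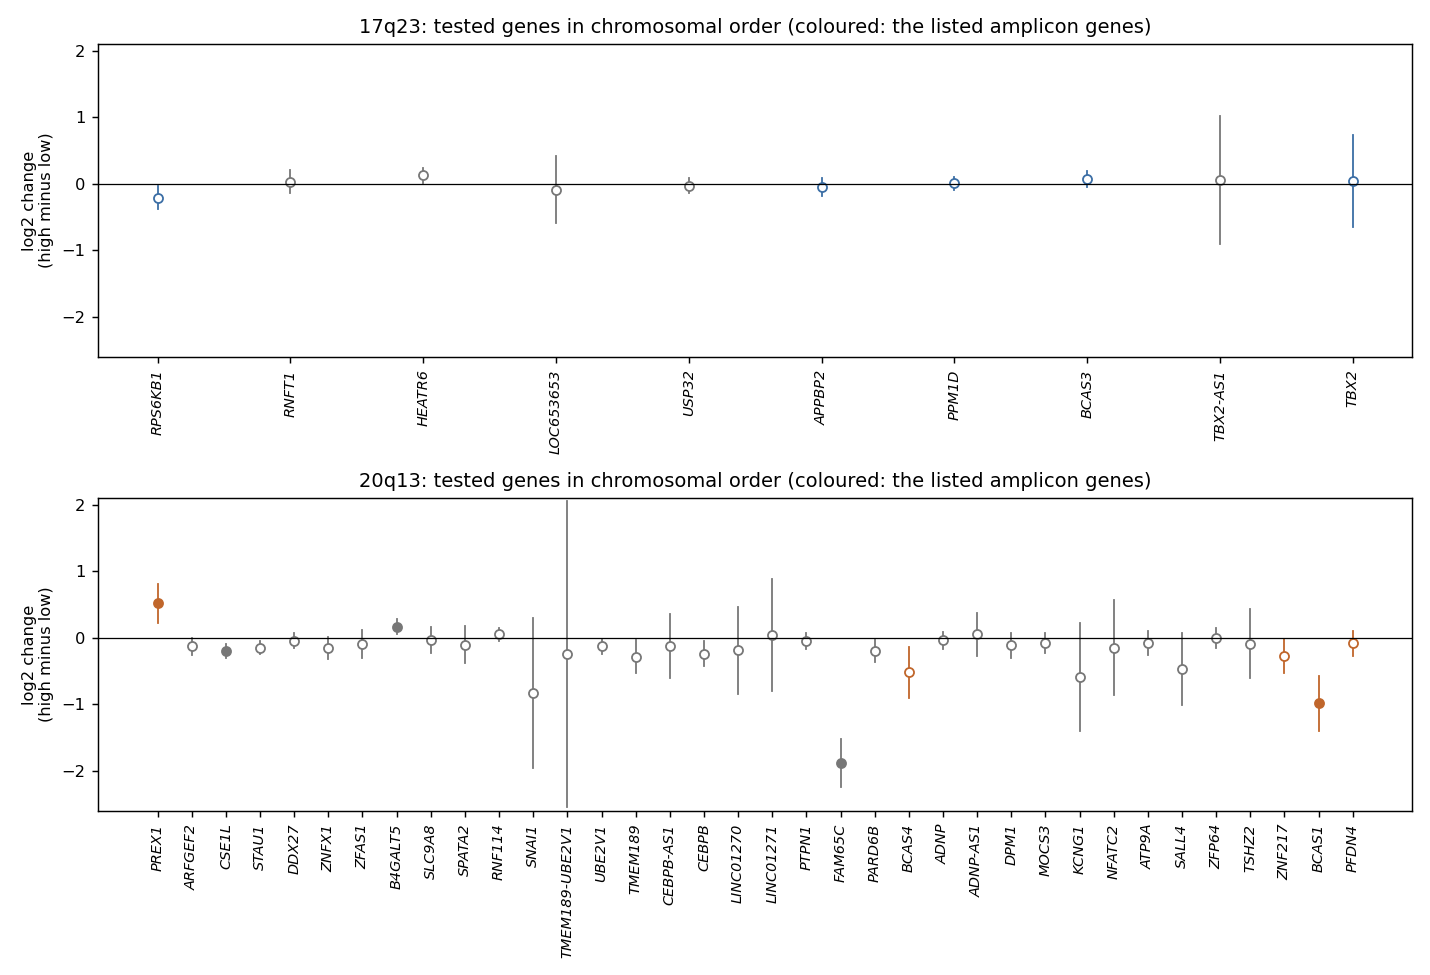
Log2 change, NPY1R high minus NPY1R low (vertical axis), with 95% interval for every tested gene between the outermost of the 10 genes, in chromosomal order (horizontal axis, not to distance), coloured for the 10 and filled where the adjusted p is under 0.05. On 17q23 all 10 points are open and near 0, and on 20q13 most points lie slightly below 0, with FAM65C and BCAS1 furthest down and PREX1 up.

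Wider lists around each band, which share some genes with these stretches, were counted as well. Of 22 other tested genes listed in or near 17q23, 1 was higher, 5 were lower and 16 did not pass (27.3% called against 13.6% of all, median log2 change -0.07). Among the called ones, TEX14, SKA2, PRR11 and GDPD1 lie before 17q23, at 58556678 to 59275970 of chromosome 17. The share called is therefore not that of the band alone. PRR11, a cell cycle gene, fell from 510.0 ± 55.6 to 222.6 ± 23.8 CPM (SD, n = 4 each), at a log2 of -1.20 (SE 0.10). SKA2, a kinetochore protein gene read from the opposite strand beside PRR11, fell by 0.37 (SE 0.05) on the log2 scale. TEX14, a gene of germ cell bridges, rose from 5.90 ± 0.675 to 14.9 ± 2.23 CPM, a log2 change of 1.34 (SE 0.14). GDPD1 fell by 0.77 (SE 0.17), VMP1, an autophagy gene, by 0.26 (SE 0.04), and TUBD1 by 0.35 (SE 0.09). TUBD1 lost its call in 6 of 8 fits that left out a library, all but those without NPY1R high replicate 3 and NPY1R low replicate 2, with adjusted p up to 0.104 in edgeR's quasi-likelihood test, and also with library totals or upper-quartile factors. MED13, a Mediator subunit, had a log2 change of -0.15 (SE 0.06) and did not pass. CA4 had 0 counts in all 8 libraries, which allows up to 3 counts in each.

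Of 43 tested other genes of 20q13, 1 was higher, 7 were lower and 35 did not pass (18.6% called, median -0.10). BMP7, a bone morphogenetic protein, fell from 442.3 ± 58.3 to 181.3 ± 20.2 CPM (SD, n = 4 each), at a log2 of -1.29 (SE 0.11). AURKA, the mitotic kinase Aurora A, fell by 0.79 (SE 0.07) and UBE2C, a ubiquitin-conjugating enzyme of mitosis, by 0.67 (SE 0.10). MYBL2 fell by 0.64 (SE 0.18) and NCOA3, an estrogen receptor coactivator also called AIB1, by 0.28 (SE 0.07). CYP24A1, the vitamin D hydroxylase next to PFDN4, had 0 counts in all 8 libraries. Without a library, MYBL2 lost its call in 6 of 8 fits (all but NPY1R high replicate 1 and NPY1R low replicate 4) and NCOA3 in 7 (all but NPY1R low replicate 2), with adjusted p up to 0.142 and 0.111 in edgeR's quasi-likelihood test. Both also lost it with library totals. Of the 28 other fits, 16 called MYBL2 and 9 called NCOA3. With all libraries kept, the count of 8 was 5 with RLE or upper-quartile factors, no filter or the replicate block, and 4 with library totals or a filter at 1 CPM. It was 4 to 5 when TMM took another library as its reference. It fell to 3 without NPY1R high replicate 2 or 4 or NPY1R low replicate 1 or 3, to 4 without NPY1R high replicate 1 or 3, to 5 without NPY1R low replicate 2 and to 6 without NPY1R low replicate 4.

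Lists of the pathways in which the 10 genes act were called at 7.14% to 33.3%, against 13.6% of all tested genes, and the 33.3% is 2 of only 6 tested T-box genes. Among 30 tested p53 pathway genes, 1 was higher and 3 were lower (13.3%). TP53I3 rose by 0.68 (SE 0.15), and GDF15 (-1.89, SE 0.27), PLK2 (-0.49, SE 0.11) and CHEK2 (-0.39, SE 0.10) fell on the log2 scale, GDF15 at only 1.46 ± 0.202 CPM in NPY1R low (SD, n = 4). The call of PLK2 was lost without NPY1R low replicate 1 (adjusted p 0.0559), and that of CHEK2 in 6 of 8 fits, all but those without NPY1R high replicate 1 and NPY1R low replicate 2 (up to 0.113), in edgeR's quasi-likelihood test. CHEK2 also lost it with library totals or upper-quartile factors. The count of 4 went to 2 without NPY1R low replicate 1.

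Among 21 genes of mTORC1 and S6 kinase signalling, 1 was higher and 1 lower (9.52%). DEPTOR, an inhibitor of mTOR, rose by 0.62 (SE 0.10), from 47.1 ± 4.20 to 72.5 ± 9.39 CPM (SD, n = 4 each), and EEF2K, a kinase that S6 kinase restrains, fell by 0.30 (SE 0.06).

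Of 13 tested Rac exchange factors and effectors besides PREX1, 2 were higher and 0 lower (15.4%). DOCK4, a Rac exchange factor, rose by 0.43 (SE 0.08) and PAK1, a Rac-activated kinase, by 0.35 (SE 0.08). PAK1 lost its call without NPY1R low replicate 1 or 3 (adjusted p up to 0.0534 in edgeR's quasi-likelihood test), so that the count was 1 there, and it was 4 without NPY1R low replicate 4. PREX2, VAV1, ELMO1, RAC2 and TIAM2 had too few counts to test.

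Of 16 prefoldin and CCT chaperonin genes, 2 were lower (12.5%), CCT7 and CCT5, each at a log2 change of -0.19 (SE 0.05), and 14 did not pass. Their calls were lost in 6 and 8 of the 8 fits that left out a library, with adjusted p up to 0.166 and 0.229 in edgeR's quasi-likelihood test; CCT7 kept its call without NPY1R low replicate 2 or 3. With all libraries kept, 0 of the 16 were called with RLE factors, library totals, upper-quartile factors, no filter or a filter at 1 CPM, while DESeq2 and limma-voom called 2. Of 12 CoREST and CtBP partners of ZNF217, 2 were lower (16.7%), RCOR2 at a log2 change of -1.39 (SE 0.30) and GSE1 at -0.36 (SE 0.09), and GSE1 lost its call without NPY1R low replicate 1 or 3 (up to 0.0623, same test).

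Of 15 other T-box genes, 6 were tested and 2 were lower, TBX10 at a log2 change of -2.28 (SE 0.40) and TBX1 at -1.43 (SE 0.28). Both were scarce, TBX10 with 2 to 14 counts in NPY1R high and 26 to 48 in NPY1R low, and TBX1 with 4 to 15 and 23 to 34. Of 14 CUL2 ligase genes, FEM1C was lower at a log2 change of -0.34 (SE 0.07) and 13 did not pass (7.14% called), and its call was lost without NPY1R high replicate 3 or 4 (adjusted p up to 0.0802 in edgeR's quasi-likelihood test).

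**Figure D5:**
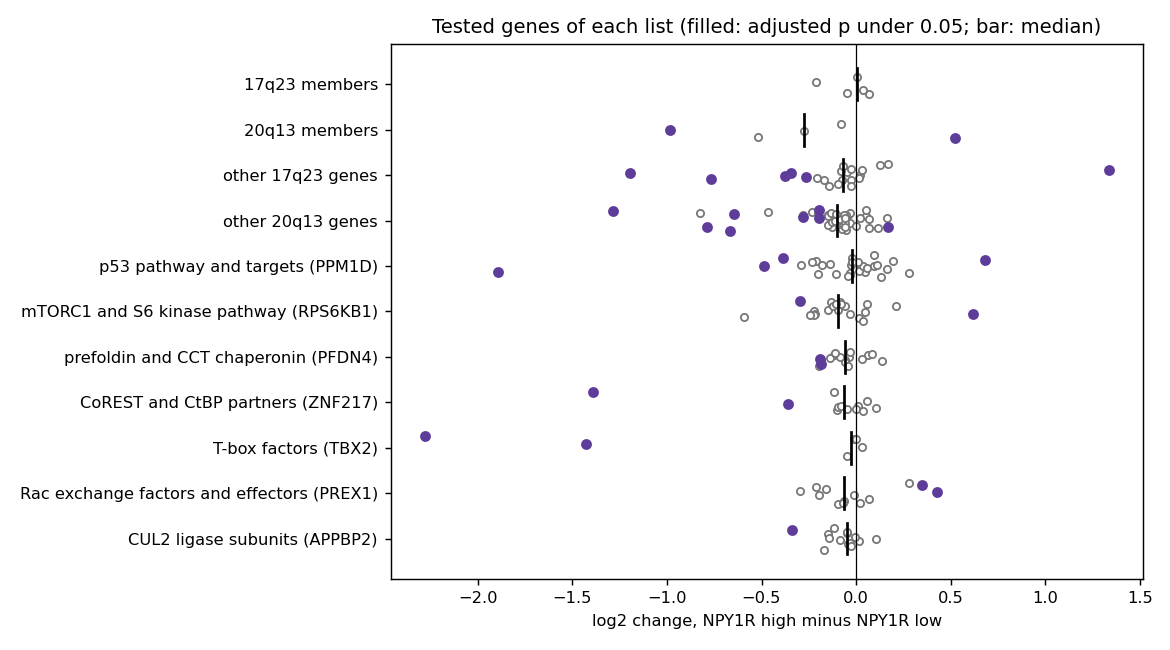
Log2 change, NPY1R high minus NPY1R low (horizontal axis), of the tested genes of each list (rows), filled where the adjusted p is under 0.05, with a bar at the list's median. The medians lie near 0 apart from that of the 20q13 members at -0.27, and single genes such as GDF15, TBX10, BMP7, PRR11 and TEX14 lie far from it.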

How the data were processed

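Per the submitters' processing notes, STAR 2.5.2, RSEM 1.3.0 and hg38 were used, with no role or order given, and the annotation is not given in the sources used here. The authors deposited unscaled expected counts by gene symbol, and these estimated counts were rounded to whole numbers before tests. The library kit was a stranded one, per the labels' protocols, and the strand setting of the counting is not given in the sources used here. Of the values in the per-sample files, 0 differed from the series table.

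Genes were filtered with filterByExpr (minimum count 10), scaled by TMM, and compared with edgeR's quasi-likelihood test (edgeR 4.0.16, R 4.3.3), with p-values adjusted by Benjamini-Hochberg over 14008 genes and a threshold of 0.05. Log2 CPM used a prior count of 2. Alternatives used DESeq2 1.42.0, limma 3.58.1 voom, other scalings and filters, a replicate block, a GC offset (a spline with 5 degrees of freedom on GENCODE 29 transcript GC, available for 94.2% of tested genes) and leaving out each library. The procedure was tested on simulated counts.

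The genes and lists were chosen with earlier results of these data known. All 10 genes were named, with up to 4 called genes per list and direction (6 for the lists of each band, 5 between the outermost genes) by size of change, and VMP1, MED13, AURKA, NCOA3, CYP24A1 and NPY1R whatever their p. ERBB2, also on that rule, had a log2 change of -0.24 (SE 0.14) and did not pass. Genes mentioned at 0 or low counts, the markers, and FAM64A, SLC16A6, ADCY9 and CPAMD8 follow the marker list and the rule of likeness. CA4 and the untested Rac genes were named after their values were seen. Library totals of 18025648 to 30609791 set the counting error. Chi-square per degree of freedom was 5.75 to 62.2 over the 12 within-group pairs of libraries, above the sampling noise in each.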

Additional observations from a re-analysis of the deposited data

Results flagged for a closer look

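In 20 sets of 4 values (10 genes in 2 groups), the gap of an end value to its nearest neighbour was compared with the range of the group, and chance alone gives about 1 set above Dixon's critical value. PPM1D in NPY1R high replicate 4 stood apart with a gap of 0.955 of the range, although its 4 values span only 99.6 to 101.6 CPM. PFDN4 in NPY1R high replicate 3 stood apart with a gap of 0.898, at 452.3 CPM where the other 3 libraries had 379.8 to 387.2 CPM.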

How the results depend on the processing

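Of 230 values of the 10 log2 changes under other settings, 203 kept their direction and their side of the threshold. BCAS1 kept both in every fit run. When the fit separated replicates 1 and 2 from 3 and 4, 2886 genes, 5 of the 10 and 11 between the outermost genes were called, among them RPS6KB1 (-0.21), ZNF217 (-0.27) and BCAS4 (-0.51). With the GC offset, 4 of the 10 and 9 between them were called, among them RPS6KB1 (-0.21) and BCAS4 (-0.51), and PPM1D turned to -0.00743. With the GC offset and that term, 3920 genes, 5 of the 10, 55 list genes and 13 between the outermost genes were called, with RPS6KB1 at -0.21, ZNF217 at -0.28, BCAS4 at -0.50 and PPM1D at -0.00744.

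Deviations of same-numbered libraries correlated at 0.339, 0.157, 0.0907 and 0.0178 across genes. Differently numbered libraries were not compared, so these values cannot decide whether the replicate numbers pair the libraries. With the replicate number as a block, the SE of BCAS1 went from 0.19 to 0.08 and that of ZNF217 from 0.11 to 0.06. The replicate block gave 1833 calls, called ZNF217 (-0.27) and ended the calls of B4GALT5, CSE1L, CHEK2, CCT7 and CCT5. The replicate block with the GC offset gave 3164 calls, 5 of the 10, 46 list genes and 11 between the outermost genes, with RPS6KB1 at -0.21, ZNF217 at -0.28, BCAS4 at -0.49 and PPM1D at -0.00731, and changed no other call among the 10.

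At an adjusted p under 0.01, 1032 genes and 1 of the 10 remained past the threshold. DESeq2 called BCAS4 (-0.49), and upper-quartile factors turned APPBP2 to 0.00777. Leaving out each library gave 1351 to 2132 genes, 1 to 3 of the 10, 17 to 26 list genes (29 with all libraries) and 2 to 6 between the outermost genes. The log2 changes then ranged from -0.14 to 0.30 for TBX2, -0.0619 to 0.0324 for APPBP2, -0.116 to 0.0237 for PFDN4, -0.60 to -0.37 for BCAS4 and 0.45 to 0.64 for PREX1. The mean of the 20q13 genes differed by -0.26 between the groups, by -0.0768 without BCAS1 and by -0.46 without PREX1. With the GC offset and the term together, the called p53 genes went from 4 to 9 of 30 and mTORC1 genes from 2 to 8 of 21. Rac genes went from 2 to 4 of 13, CUL2 genes from 1 to 3 of 14 and other 20q13 genes from 8 to 15 of 43. The calls over all tested genes went from 13.6% to 28% in the same fit. The causes were not tested, and the fits that left a library out also had fewer samples. TBX1 could not be tested in 1 of these settings, the filter at 1 CPM. TBX2 had 44 to 125 counts, and its SE went from 0.31 to 0.17 with the GC offset.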
